A study of Mus musculus with 14 samples.

Results

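DNA methylation is written, copied and removed by a small set of enzymes, and 8 of their genes were followed here: the maintenance pair Dnmt1 and Uhrf1, the de novo methyltransferase genes Dnmt3a and Dnmt3b, the dioxygenase genes Tet1, Tet2 and Tet3, and the glycosylase gene Tdg. They were chosen by name, with earlier results of these data known, and all 8 were found among the 35449 genes counted. The counts are reads from transcript 3′ ends in 14 untreated primary mouse lines from E13.5 embryos, with 1 library for each line. Fibroblasts from the body (MEFs) came as 3 wild-type (WT) and 5 KO lines, and neurospheres, floating cultures grown from the head that are rich in neural stem cells, as 3 WT and 3 KO lines. KO refers to H3f3a, a gene for the replication-independent histone H3.3, targeted with an allele that the series title calls knockout-first. The sources used here do not give strain, sex, zygosity, passage number or the position of the cassette, nor do they state whether a MEF line and a neurosphere line share an embryo.

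As background, Dnmt1 restores methylation of CpG sites on the new strand after replication, and Uhrf1 brings it there by binding CpG sites that are methylated on the old strand alone. Dnmt3a and Dnmt3b methylate sites that carried no mark. The TET enzymes oxidise methylcytosine to hydroxymethylcytosine and beyond, and Tdg cuts out the most oxidised forms, so that base excision repair can put back a plain cytosine. Hydroxymethylcytosine is known to be abundant in neural tissue.

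Gene counts per library ran from 2080798 to 3296178 in MEFs and from 1669406 to 2874677 in neurospheres. H3f3a stood at 853 to 1422 CPM (counts scaled to library size) in WT MEFs and at 7.27 to 19.1 CPM in KO MEFs, while WT neurospheres had 1966 to 2352 CPM and KO neurospheres 26.9 to 69.7 CPM, so the library labels and the targeted gene did not conflict. The 12 fibroblast markers summed to 15741 to 23042 CPM in MEFs and 62.9 to 209 CPM in neurospheres. The 12 neural stem and progenitor markers summed to 7471 to 13310 CPM in neurospheres and 4157 to 5233 CPM in MEFs. The MEF sum was mostly Vim, with means of 4425 (WT) and 4264 CPM (KO) against 1285 and 1637 CPM in neurospheres. Of the 12 markers, Olig2 was at 0 in all MEF lines and averaged 552 CPM over WT neurospheres and 549 CPM over the KO ones. Pax6 stood at 0.623 and 0.587 CPM in WT and KO MEFs against 55.6 and 55.9 CPM in neurospheres. Neuron markers summed to 1291 to 1528 CPM in neurospheres and 84.5 to 181 CPM in MEFs. The neurosphere sum was mostly Map2, with means of 1325 (WT) and 1353 CPM (KO) against 55.3 and 23.6 CPM in MEFs. Tubb3 and Stmn2 went the other way, Tubb3 with 25.9 and 46.1 CPM in neurospheres against 57.6 and 80.7 CPM in MEFs. WT MEFs 2 and KO MEFs 3 stood apart from the other MEF lines, with a median Spearman correlation over 6903 genes of 0.8345 and 0.851 where the other 6 lines had at least 0.954. Mitochondrial transcripts took 5.27% to 6.15% of counts in MEFs and 12.9% to 16.8% in neurospheres, and their part in the cell type differences that follow was not tested.

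The first comparison asked how the members differ between neurospheres and MEFs, once in the WT lines and once in the KO lines. Dnmt3a, Tet1, Tet2, Tet3 and Tdg were higher in neurospheres in both, by 2.15 to 7.60 times in WT and 2.10 to 8.48 times in KO lines, with no overlap between lines. Dnmt1 and Uhrf1 had lower means in neurospheres and did not pass the test. Dnmt3b had means of 1.99 to 2.35 CPM in the 4 groups. By edgeR's quasi-likelihood test, 5 of the 7 members tested passed as higher in each comparison, at a Benjamini-Hochberg adjusted p under 0.05 over all genes tested. Of all genes tested, 20.8% were called higher in the WT comparison and 25.4% in the KO comparison. The lines did not overlap, with neurospheres higher, in 27.5% of all genes in WT and 24.2% in KO lines, and with neurospheres lower in 29.7% and 25.3%. In both comparisons at once, 18.5% of the 10859 genes tested in both were called higher. The WT and KO comparisons use different lines. The 5 calls in each held without any single line. Differences given in times are ratios of group mean CPM. The log2 values with SE and interval are edgeR estimates from each comparison's own fit, so they need not match exactly. In bulk libraries, fewer cells of a type and less RNA per cell cannot be told apart. The 8 members together summed to 287 ± 18.6 CPM (SD, n = 3) in WT MEFs and 281 ± 24.0 CPM (n = 5) in KO MEFs, against 718 ± 52.7 CPM and 685 ± 76.1 CPM (n = 3 each) in WT and KO neurospheres.

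**Figure D1:**
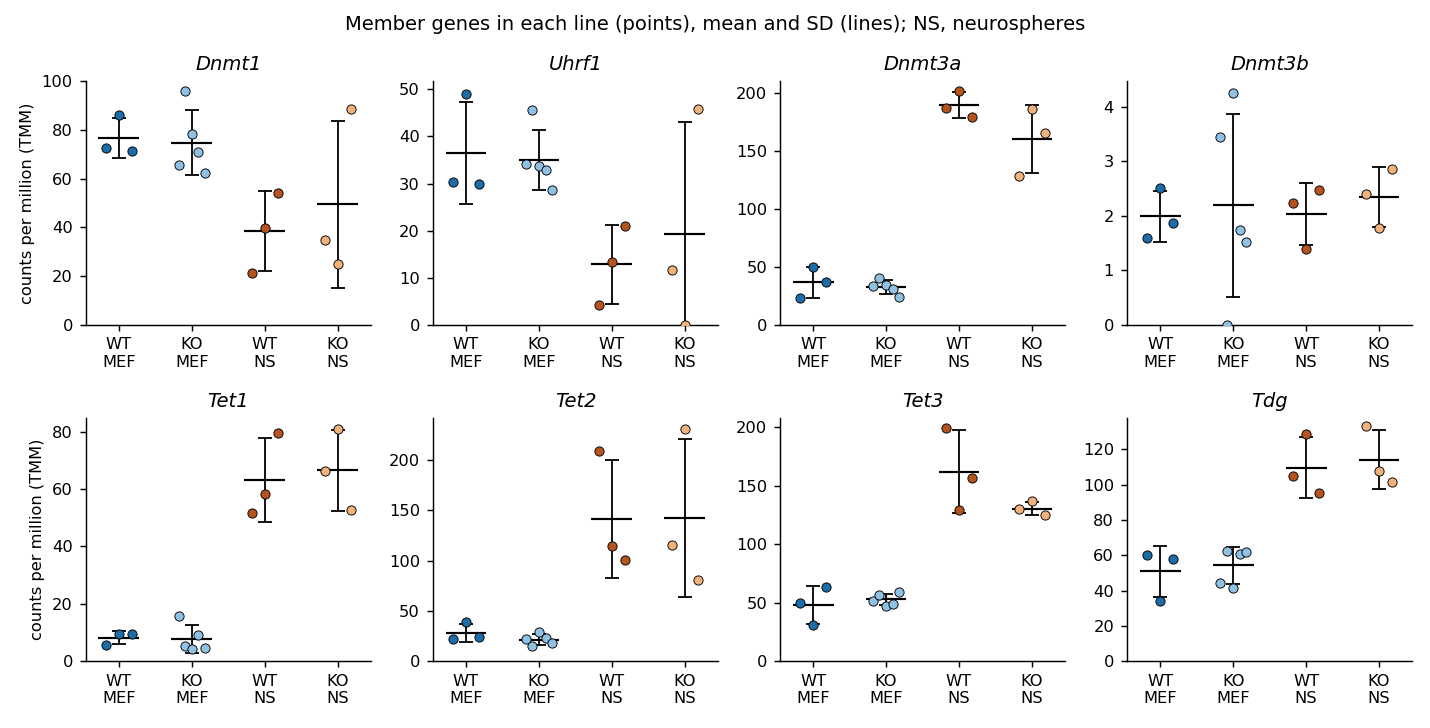
CPM (vertical axes, TMM scaling over all 14 libraries) of the 8 genes in each line, 1 point per line, with the group mean and SD as lines, for WT and KO MEFs and WT and KO neurospheres (NS). Dnmt3a, Tet1, Tet2, Tet3 and Tdg lie higher in all 6 neurosphere lines than in all 8 MEF lines, while Dnmt1 and Uhrf1 reach from low values up to the MEF range in neurospheres.

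Dnmt1 lies on the minus strand of chromosome 9 (GRCm38, chr9:20907209-20959888) and Uhrf1 on the plus strand of chromosome 17 (chr17:56303321-56323486). Promoter letters of both genes are printed, from RefSeq's promoter table for GRCm38.p6, and a relation of these letters to the levels was not tested. The 250 bases before the Uhrf1 start site nearest to that of the GENCODE transcript with most reads hold CCAAT, and TTTNNCGC, the letters of an E2F-like site, which are in capitals.
Uhrf1 (chr17:56304063-56304312, plus strand): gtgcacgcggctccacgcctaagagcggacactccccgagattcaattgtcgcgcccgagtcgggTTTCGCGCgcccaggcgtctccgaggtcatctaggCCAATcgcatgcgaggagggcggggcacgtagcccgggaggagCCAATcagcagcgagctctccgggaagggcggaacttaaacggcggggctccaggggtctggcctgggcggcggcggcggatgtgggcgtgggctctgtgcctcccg
The other TTTNNCGC matches of both genes, on either strand, lie at further RefSeq start sites and are shown with their surroundings, the match in capitals. In the first of them 2 copies overlap, and both Dnmt1 stretches lie in exons of annotated Dnmt1 transcripts.
Dnmt1, start site 20952623 (chr9:20952823-20952852, minus strand): gtttccgcgcGCGCGAAAAAgccggggtct
Dnmt1, start site 20952623 (chr9:20952574-20952601, minus strand): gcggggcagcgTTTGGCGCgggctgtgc
Uhrf1, start site 56303337 (chr17:56303270-56303299, plus strand): gccccacttgcTTTCTCGCttcccgccaca
Each entry of the table runs from 250 bases before to 50 after a start site. TTTNNCGC was found in both entries of Uhrf1, in 1 of the 3 of Dnmt1, which is not the one at the start of Dnmt1-201, and in none of the 8 entries of the other members. It occurs in 5.17% of all 32851 entries, and CCAAT in 37.4%. CCAAT was found in both entries of Uhrf1 and in the entries of Tet3 and Tdg. Of the Dnmt1 entries, all but the one at the start of Dnmt1-201 held it. A match is a description of letters, and binding of any factor was not measured.

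Dnmt1 stood at 72.4, 86.0 and 71.5 CPM in WT MEFs 1 to 3 and at 65.6, 96.0, 78.2, 71.0 and 62.4 CPM in KO MEFs 1 to 5. In WT neurospheres 1 to 3 it stood at 21.2, 39.8 and 53.9 CPM and in KO neurospheres 1 to 3 at 34.9, 24.8 and 88.5 CPM. The WT groups did not overlap, with all 3 neurosphere lines below the MEF lines, while KO neurospheres 3 lay within the range of the KO MEFs and the other two KO neurosphere lines below it. Expressed as log2, the difference between neurospheres and MEFs was -0.95 (SE 0.34, 95% interval -1.73 to -0.17, edgeR adjusted p = 0.0533) in WT and -0.57 (SE 0.36, -1.37 to 0.24, adjusted p = 0.210) in KO lines. The side of the threshold depended on settings and on single lines. The WT difference passed with DESeq2 (adjusted p = 0.0321), with limma on TPM (0.0200) and without WT neurospheres 3 (log2 -1.26, edgeR adjusted p = 0.0292), and the KO difference without KO neurospheres 3 (log2 -1.25, edgeR adjusted p = 0.00294).

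Uhrf1 stood at 30.4, 49.1 and 29.96 CPM in WT MEFs 1 to 3 and at 34.2, 45.5, 33.6, 32.9 and 28.6 CPM in KO MEFs. It was lower and more spread in neurospheres, at 4.10, 13.4 and 20.9 CPM in WT lines and 11.6, 0 and 45.9 CPM in KO lines. KO neurospheres 2 had 0 counts, which allows up to 1.77 CPM by counting error alone (3 counts), and KO neurospheres 3 had 128 counts. The WT lines of both cell types did not overlap, and KO neurospheres 3 lay at the top of the KO MEF range. The log2 difference between neurospheres and MEFs was -1.46 (SE 0.53, -2.70 to -0.22, edgeR adjusted p = 0.0610) in WT and -0.82 (SE 0.79, -2.59 to 0.94, adjusted p = 0.407) in KO lines, and without KO neurospheres 3 the latter became -2.41 (edgeR adjusted p = 0.0293). The WT difference passed with DESeq2 (adjusted p = 0.0231), with limma on TPM (0.0190), with a replicate block (0.0474) and without WT neurospheres 3 (log2 -2.01, edgeR adjusted p = 0.0344). The ratio of Uhrf1 to Dnmt1 counts was 47.1 ± 8.70 Uhrf1 counts per 100 Dnmt1 counts in WT MEFs and 31.0 ± 9.87 in WT neurospheres (n = 3 each, exact two-sided permutation test of the log2 ratio, p = 0.100, the smallest that 3 against 3 lines allow, adjusted p = 0.400 over 12 ratio comparisons).

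The spread of both genes among neurosphere lines ran alongside that of 22 S phase genes, which serve DNA replication (Mcm2 to Mcm7, Pcna, Rrm1, Rrm2 and others, without Dnmt1 and Uhrf1). These summed to 301, 502 and 767 CPM in WT neurospheres 1 to 3, to 352, 298 and 1450 CPM in KO neurospheres 1 to 3, and to 1479 to 2375 CPM in MEFs. KO neurospheres 3 was thus highest in the S phase genes, in Dnmt1 and in Uhrf1, and KO neurospheres 2 lowest in the S phase genes and in Uhrf1. Over the 6 neurosphere lines, log2 CPM of Dnmt1 and the log2 sum of S phase genes had Pearson r = 0.975 (Spearman rho = 0.943), and Uhrf1 had r = 0.803 (rho = 1.00). These are descriptions: the lines mix both genotypes, and each point shares its library and scaling factor between both axes. Without the 2 lines farthest from the median, KO neurospheres 3 and WT neurospheres 3, r over the remaining 4 was 0.877 for Dnmt1 and 0.696 for Uhrf1. In the 8 MEF lines r was 0.875 and 0.872, and it fell to 0.174 and 0.186 without WT MEFs 2 and KO MEFs 2, so that in MEFs the relation rested on those lines.

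**Figure D2:**
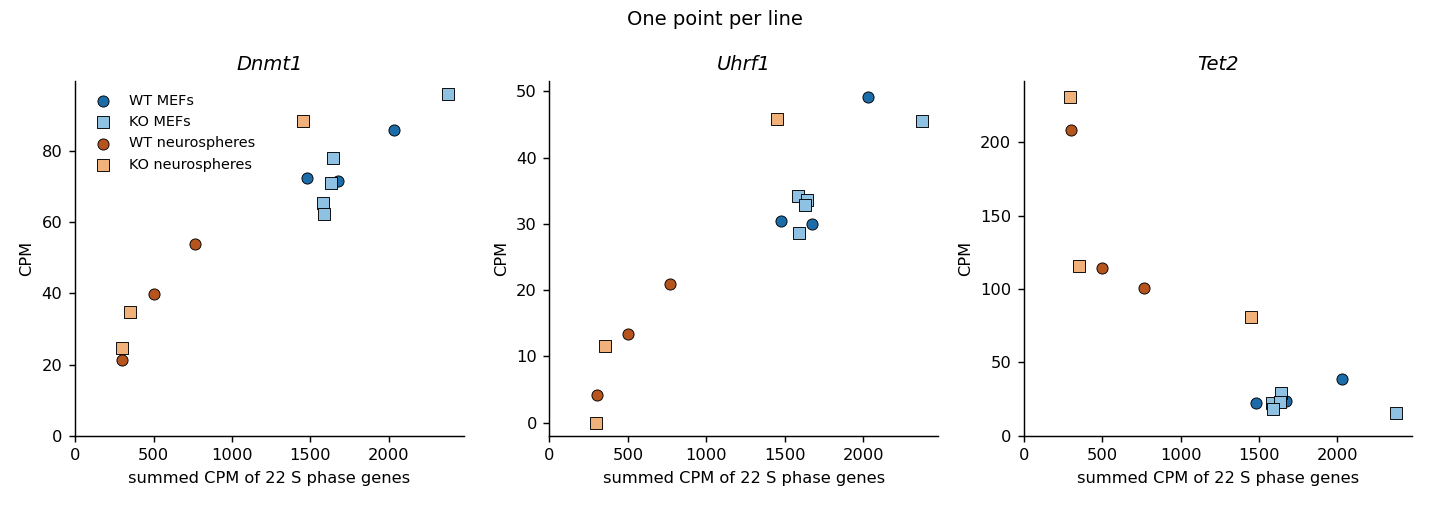
CPM of Dnmt1, Uhrf1 and Tet2 (vertical axes) against the summed CPM of 22 S phase genes (horizontal axes), 1 point per line, with circles for WT and squares for KO lines. Among neurospheres, Dnmt1 and Uhrf1 are highest and Tet2 lowest in KO neurospheres 3, the line with 1450 CPM of S phase genes.

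Set against the S phase genes of the same library, Uhrf1 had mean ratios of 2.09 ± 0.315 Uhrf1 counts per 100 S phase counts in WT MEFs, 1.99 ± 0.136 in KO MEFs (n = 5), 2.25 ± 0.773 in WT neurospheres and 2.16 ± 1.87 in KO neurospheres (n = 3 elsewhere), and the lines of all groups overlapped. The ratio of Dnmt1 was 4.46 ± 0.372 and 4.25 ± 0.328 Dnmt1 counts per 100 S phase counts in MEFs (WT and KO), against 7.34 ± 0.508 for WT neurospheres and 8.11 ± 1.91 for KO neurospheres. The highest MEF line, at 4.89, lay below the lowest neurosphere line, at 6.11. These ratios were chosen after the values were seen and were not tested.

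Of the de novo enzymes, Dnmt3a (plus strand, chr12:3806007-3914443) is the one that supplied nearly all reads. It stood at 23.2, 49.8 and 36.5 CPM in WT MEFs and at 33.1, 40.3, 34.1, 31.2 and 23.6 CPM in KO MEFs 1 to 5. In WT neurospheres 1 to 3 it reached 187, 202 and 180 CPM and in KO neurospheres 129, 187 and 165 CPM. Every neurosphere line lay above every MEF line. The WT difference was 5.19 times (log2 2.43, SE 0.30, 95% interval 1.73 to 3.12, edgeR adjusted p = 0.000813) and the KO difference 4.93 times (log2 2.33, SE 0.20, 1.87 to 2.79, adjusted p = 1.84e-05). With the S phase sums Dnmt3a had r = -0.016 over the 6 neurosphere lines and 0.750 over the 8 MEF lines.

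Dnmt3b (plus strand, chr2:153649450-153687730), the enzyme best known from early embryos and pluripotent cells, had 0 to 10 counts per library and 78 in all. It stood at 1.99 ± 0.466 CPM (SD) for WT MEFs and 2.19 ± 1.68 CPM for KO MEFs, and neurospheres had 2.04 ± 0.575 CPM (WT) and 2.35 ± 0.550 CPM (KO). The lines of all 4 groups overlapped. Being under the filter on low counts, it was the only member left out of the main tests. In edgeR's fit with no filter it did not pass in any comparison. The log2 of neurospheres against MEFs was 0.06 (95% interval -1.76 to 1.89, edgeR adjusted p = 0.964) in WT and 0.13 (-1.75 to 2.01, adjusted p = 0.915) in KO lines. These intervals end below the Dnmt3a estimates given above but overlap the Dnmt3a intervals, and the difference between the genes was not tested. Dnmt3a made up 94.6% ± 0.934 of the Dnmt3a and Dnmt3b counts in WT MEFs and 98.9% ± 0.352 in WT neurospheres (exact two-sided permutation p = 0.100, the smallest possible, adjusted p = 0.400).

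All 3 TET genes were higher in neurospheres. Tet1 (minus strand, chr10:62804570-62908996) stood at 5.597, 9.67 and 9.67 CPM in WT MEFs and at 15.9, 5.22, 4.27, 9.35 and 4.57 CPM in KO MEFs 1 to 5. It reached 51.8, 58.2 and 79.5 CPM in WT and 66.1, 80.9 and 52.7 CPM in KO neurospheres. The lowest neurosphere line lay well above the highest MEF line, KO MEFs 1. It had the largest difference of the 8 genes, at 7.60 times in WT (log2 2.96, SE 0.32, 2.22 to 3.71, edgeR adjusted p = 0.000480) and 8.48 times in KO lines (log2 3.09, SE 0.41, 2.17 to 4.01, adjusted p = 0.000230). With the deposited TPM in limma, the KO difference was log2 1.76 with an adjusted p of 0.0586.

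Tet2 (minus strand, chr3:133463679-133545139) was at 22.4, 38.7 and 23.7 CPM in WT MEFs and at 22.1, 15.3, 29.4, 23.2 and 18.3 CPM in KO MEFs 1 to 5. In neurospheres it ranged widely, with 208, 114 and 101 CPM in WT lines 1 to 3 and 116, 231 and 80.7 CPM in KO lines 1 to 3. The lowest neurosphere line was still above the highest MEF line. The difference was 4.99 times in WT (log2 2.37, SE 0.38, 1.503 to 3.246, edgeR adjusted p = 0.00226) and 6.58 times in KO lines (log2 2.75, SE 0.35, 1.97 to 3.53, adjusted p = 0.000175). Within neurospheres Tet2 ran opposite to the maintenance pair: the order of its 6 lines was the reverse of the order of their S phase sums (rho = -1.0, r = -0.850, and r = -0.809 over 4 lines without KO neurospheres 3 and WT neurospheres 3). In the 8 MEF lines r was -0.100.

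The Tet2 promoter stands out in its letters, and so the 250 bases before its start site are shown, with capitals for a stretch of 15 bases that recurs 4 times at steps of 42 bases.
Tet2 (chr3:133544391-133544640, minus strand, GRCm38.p6): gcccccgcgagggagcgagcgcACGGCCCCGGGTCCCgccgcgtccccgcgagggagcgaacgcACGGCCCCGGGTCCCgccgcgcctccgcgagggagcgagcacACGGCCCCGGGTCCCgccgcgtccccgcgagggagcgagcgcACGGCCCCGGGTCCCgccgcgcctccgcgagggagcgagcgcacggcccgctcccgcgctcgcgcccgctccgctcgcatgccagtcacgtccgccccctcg
Of all 32851 promoter entries, 2.31% hold any 15 bases at least 4 times. Counted over the entry of 300 bases nearest to the main start site, Tet2 had 57 CpG, the dinucleotide that these enzymes act on, more than 99.8% of all entries. Dnmt3a had 46 (98.4%), Uhrf1 33, Dnmt3b 30, Tdg 26, Tet3 22, Tet1 17 and Dnmt1 12, against a median of 7 over all entries. At that entry all 8 members were above the median. The order depends on the entry: the Dnmt1 entry at start site 20952623 had 33 CpG, and the Uhrf1 entry at 56303337 had 12. Reads from 3′ ends do not show which start site was used. The Tet1 entry lies 7310 bases from the start of its main GENCODE transcript, and the state of methylation of these promoters was not measured.

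Tet3 (minus strand, chr6:83362373-83459084) stood at 49.98, 30.8 and 63.0 CPM in WT MEFs and at 51.4, 57.0, 47.4, 49.2 and 59.0 CPM in KO MEFs 1 to 5. Neurospheres had 199, 129 and 157 CPM in WT and 130, 136 and 125 CPM in KO neurospheres. No neurosphere line fell into the MEF range. The difference was 3.37 times in WT (log2 1.81, SE 0.31, 1.09 to 2.53, edgeR adjusted p = 0.00317) and 2.47 times in KO lines (log2 1.34, SE 0.15, 1.00 to 1.67, adjusted p = 7.78e-05). Among the TET counts of a library, the Tet3 share was 56.1% ± 14.9 in WT MEFs, 64.4% ± 7.79 in KO MEFs (n = 5), 44.2% ± 2.01 in WT and 40.1% ± 9.04 in KO neurospheres. KO neurospheres and KO MEFs differed in this share by -24.2 percentage points (exact two-sided permutation p = 0.0357, adjusted p = 0.400 over 12 ratio comparisons), which did not hold after adjustment. Tet1 made up 9.81% ± 2.53 of TET counts in WT MEFs and 18.1% ± 6.25 in WT neurospheres, and Tet2 34.1% ± 13.0 and 37.7% ± 7.72. WT MEFs 2, one of the lines that stood apart, had a Tet3 share of 38.9% where WT MEFs 1 and 3 had 64.1% and 65.4%.

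**Figure D3:**
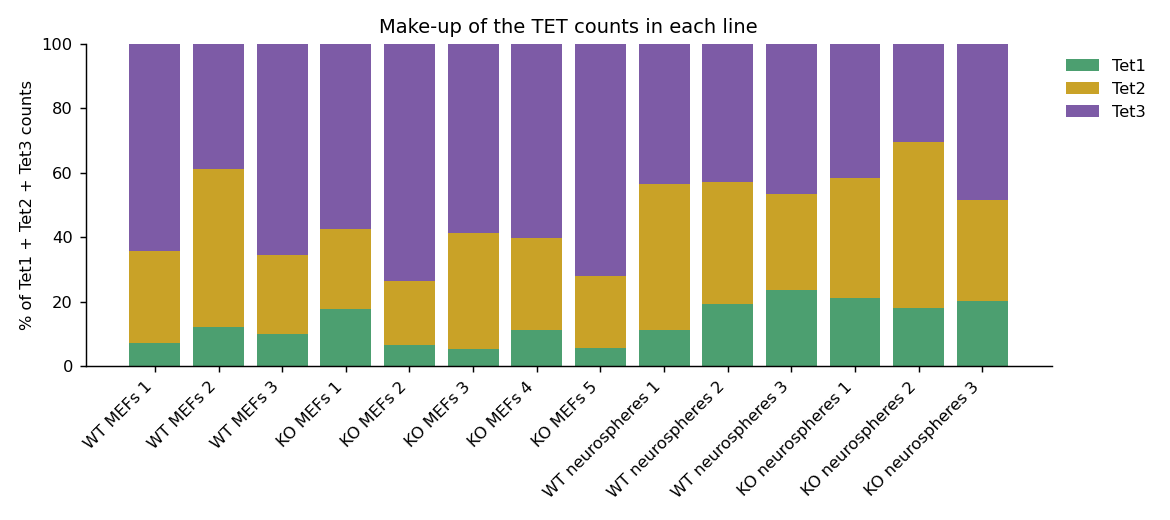
Stacked bars give the percentage of Tet1, Tet2 and Tet3 in the summed TET counts (vertical axis) of each of the 14 lines (horizontal axis). Tet3 takes more than the other two together in 7 of the 8 MEF lines, WT MEFs 2 being the exception, and 30.4% to 48.3% in the neurosphere lines.

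Tdg (plus strand, chr10:82629828-82650799) showed the smallest of the passing differences. It stood at 60.4, 34.4 and 58.0 CPM in WT MEFs and at 44.5, 62.6, 41.7, 61.0 and 62.1 CPM in KO MEFs 1 to 5. Neurospheres had 105, 129 and 95.4 CPM in WT and 133, 108 and 102 CPM in KO neurospheres. The groups did not overlap in either genotype. The difference was 2.15 times in WT (log2 1.16, SE 0.28, 0.53 to 1.80, edgeR adjusted p = 0.0119) and 2.10 times in KO lines (log2 1.11, SE 0.20, 0.67 to 1.55, adjusted p = 0.00129). The 3′ end of Tdg overlaps that of Glt8d2 on the opposite strand, which had 63 reads over all libraries against 2797 counts of Tdg.

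**Figure D4:**
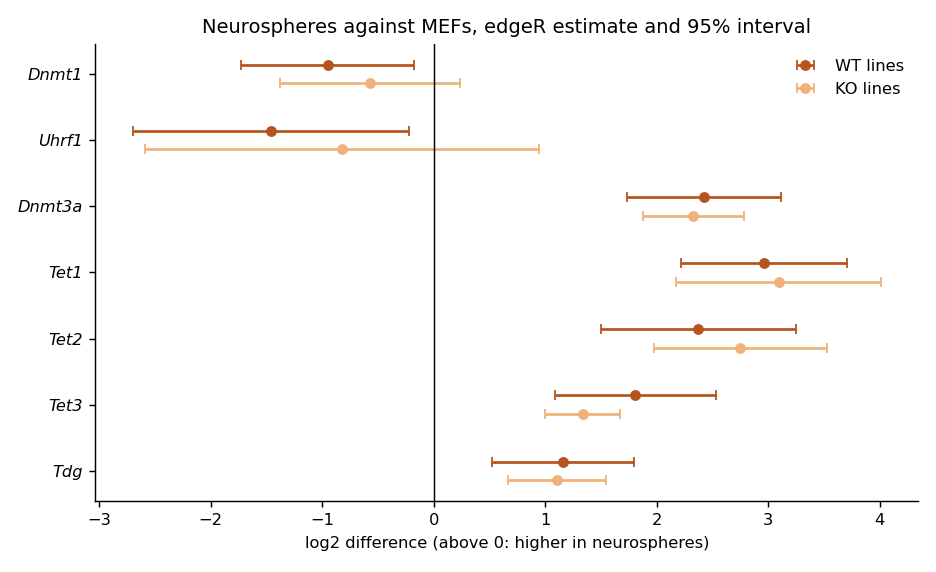
Log2 difference of neurospheres against MEFs (horizontal axis, edgeR estimate as a point, 95% interval as a bar) for the 7 tested members, in WT lines and in KO lines. The intervals of Dnmt3a, Tet1, Tet2, Tet3 and Tdg lie above 0 in both, and those of Dnmt1 and Uhrf1 lie below 0 in WT lines and reach across it in KO lines.

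Levels of the members were set side by side on the deposited TPM scale, which divides by transcript length, although reads here come from 3′ ends whatever the length of a transcript. On it, WT MEFs had Dnmt1 first at 28.1 ± 12.0 TPM, then Tdg at 14.8 ± 3.20, Uhrf1 at 14.8 ± 5.65, Tet3 at 5.95 ± 0.646, Dnmt3a at 5.41 ± 3.04, Tet2 at 3.72 ± 1.52, Tet1 at 1.71 ± 2.26 and Dnmt3b at 0.681 ± 0.209 (SD, n = 3). In this order only the step from Uhrf1 to Tet3 exceeded the sum of both neighbours' SDs. In WT neurospheres Tdg came first at 30.5 ± 3.19 TPM, then Dnmt3a at 27.2 ± 6.03, Tet2 at 25.3 ± 13.0, Tet3 at 20.5 ± 4.94, Tet1 at 15.8 ± 7.80, Dnmt1 at 9.69 ± 3.36, Uhrf1 at 4.09 ± 2.30 and Dnmt3b at 0.610 ± 0.178. There only the step from Uhrf1 to Dnmt3b did. On this scale the means of Dnmt1 and Uhrf1 lay above those of the TET genes in WT MEFs and below them in WT neurospheres, where the step from Tet1 to Dnmt1 did not exceed the sum of their SDs. The order depends on the scale. In CPM, without division by length, Tet3 was above Uhrf1 in MEFs, at 47.9 against 36.5 CPM in WT and 52.8 against 35.0 CPM in KO lines.

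Reads were assigned by the authors' Salmon run to few transcripts of each gene. In WT MEFs 93.4% of Dnmt1 reads went to Dnmt1-201 and 4.65% to Dnmt1-202, and in WT neurospheres 51.2% and 48.5%. Both share the same last exon (chr9:20907209-20907561), and single lines ran from 0% to 99.3% for Dnmt1-201 in WT neurospheres, so the split is an estimate that was not tested. Dnmt3a-201 took 79.5% of the reads of Dnmt3a in WT neurospheres and Dnmt3a-203 18.3%. Tet1-201 took 86.8% of Tet1 reads in WT neurospheres, 82.5% in KO MEFs and 32.4% in WT MEFs, where Tet1-206 took 64.8%. Its share in single WT MEF lines ran from 0% to 100%, so this split is an estimate as well. Tet2-201 took 78.4% of the Tet2 reads, and 17.8% went to Tet2-210, a retained intron (chr3:133479056-133480682) that held 13.0% in KO MEFs. Tet3-202 and Tdg-208 held 92.4% and 98.7% in WT neurospheres, and Dnmt3b-206 all Dnmt3b reads. For Uhrf1, 3 transcripts with an identical last exon shared the reads, with Uhrf1-204 taking all in WT MEFs and KO neurospheres, 47.3% in KO MEFs and 40.4% in WT neurospheres. Its share in single lines of the latter groups was anywhere from 0% to 100%, so this split too is an estimate.

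The second comparison asked whether the members differ between KO and WT lines. In MEFs none of the 7 tested members passed edgeR's test, none had an unadjusted p under 0.05, and none was called by DESeq2 or limma. Of all 10785 genes tested, 0.00927% passed, which is H3f3a alone (0.0796 as its edgeR adjusted p with a replicate block). In neurospheres none of the 7 passed either or had an unadjusted p under 0.05, and none was called by DESeq2 or limma. With edgeR 0.00941% of 10624 genes passed, again H3f3a alone, while DESeq2 called 7 genes. The H3f3a call ended without WT neurospheres 2 (edgeR adjusted p = 0.0801) or KO neurospheres 1 (0.202), with log2 values of -5.38 and -5.46 beside -5.37 over all lines. The KO and WT lines overlapped for all 8 members in both cell types, while 1.84% of all genes in MEFs and 7.14% in neurospheres had lines without overlap.

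In MEFs the log2 values of KO against WT were close to 0 for Dnmt1 (-0.03, 95% interval -0.43 to 0.37), Uhrf1 (-0.06, -0.57 to 0.46), Tet1 (-0.07, -1.15 to 1.01), Tdg (0.11, -0.39 to 0.61), Tet3 (0.15, -0.32 to 0.63) and Dnmt3a (-0.16, -0.76 to 0.43). Tet2 had the lowest, at -0.38 (-1.01 to 0.25), with means of 28.3 ± 9.06 CPM (SD, n = 3) in WT and 21.6 ± 5.34 CPM (n = 5) in KO MEFs. WT MEFs 2, the highest line in Tet2, was also highest in the 13 macrophage, microglia and blood markers, at 173 CPM against 61.8 to 68.4 CPM in the other WT MEFs and 17.1 to 85.9 CPM in KO MEFs, and their part in the Tet2 values was not tested. In neurospheres Tet3 had -0.30 (-0.82 to 0.21) and Dnmt3a -0.24 (-0.74 to 0.26), from 162 ± 35.4 to 130 ± 5.85 CPM and from 189.5 ± 11.1 to 160 ± 29.3 CPM. Tet2 (0.02, -1.01 to 1.06), Tdg (0.07, -0.45 to 0.58) and Tet1 (0.08, -0.54 to 0.70) lay near 0. The widest intervals were those of Dnmt1 (0.37, -0.84 to 1.58) and Uhrf1 (0.60, -2.29 to 3.50), and without KO neurospheres 3 these values became -0.34 and -1.04. The S phase genes moved with that line, as given above. The median log2 over the 7 members was -0.055 in MEFs and 0.066 in neurospheres, beside -0.001 and 0.011 over all genes.

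**Figure D5:**
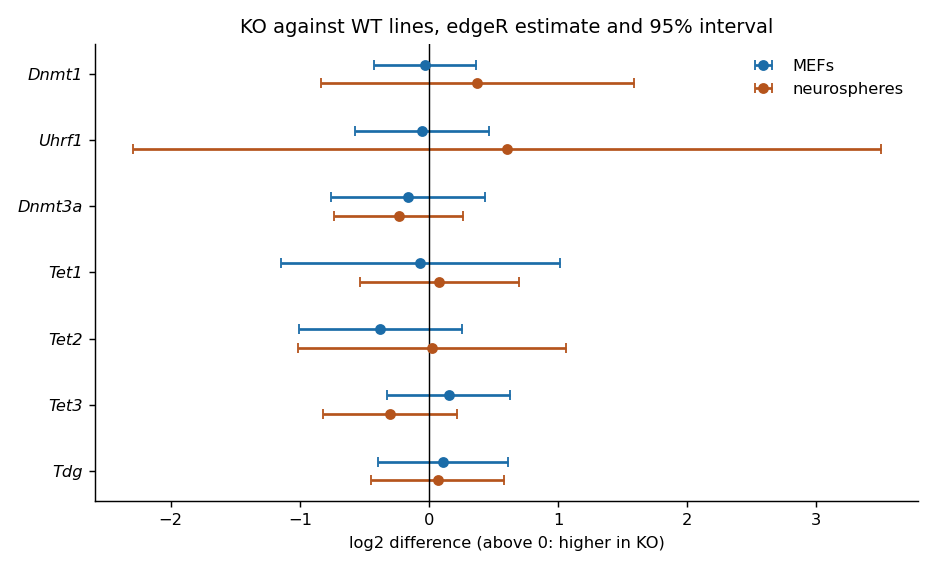
Log2 difference of KO against WT lines (horizontal axis, edgeR estimate as a point, 95% interval as a bar) for the 7 tested members in MEFs and in neurospheres. All 14 intervals include 0, and the widest is that of Uhrf1 in neurospheres, from -2.29 to 3.50.

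The third comparison, the interaction of genotype and cell type over all 14 libraries, asked whether the cell type differences of the members differ between WT and KO lines. None of the 7 members passed edgeR's test, and the lowest unadjusted p was 0.151, for Tet3 (log2 -0.48, 95% interval -1.15 to 0.20). Among all 12113 genes 0.00% passed, with 366 at an unadjusted p under 0.05, and DESeq2 called 3. For the 5 genes higher in neurospheres in both genotypes, the interaction values were 0.13 (-1.09 to 1.36) for Tet1, 0.38 (-0.79 to 1.54) for Tet2, -0.48 for Tet3, -0.09 (-0.84 to 0.65) for Dnmt3a and -0.05 (-0.75 to 0.64) for Tdg. Dnmt1 had 0.38 (-0.75 to 1.52) and Uhrf1 0.64 (-1.74 to 3.02). These intervals leave room for differences of more than 1.5 times in either or both directions.

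The genes that work beside the members were described from lists. For comparison, 20.8% of all genes tested were called higher and 20.8% lower in the WT comparison, and 25.4% and 26.2% in the KO comparison. Of 13 partners of the methyltransferases, 10 were tested between WT neurospheres and WT MEFs, and 0 rose while 2 fell: Hells, a chromatin remodeler needed for methylation, from 134 ± 10.5 to 17.6 ± 14.8 CPM (log2 -2.88, edgeR adjusted p = 0.0126), and Pcna, the replication clamp that binds Dnmt1, from 218 ± 88.9 to 80.6 ± 40.6 CPM (-1.39, adjusted p = 0.0346). In KO lines 0 rose and 2 fell, Hells (log2 -1.99) and the corepressor gene Trim28 (-0.96). The median log2 of the list was -0.50 in WT and -0.59 in KO lines, beside 0.02 and -0.01 over all genes. Of the 22 S phase genes, 16 fell in the WT comparison and 11 in the KO comparison and 0 rose in either, led in WT by Ccne1 (log2 -3.15), Rrm2 (-2.88), Ccne2 (-2.85) and Cdc6 (-2.85) and in KO by Ccne2 (-2.87), Rrm2 (-2.63), Ccne1 (-2.18) and Tyms (-1.83). Of 20 G2 and M phase genes 13 and 8 fell and 0 rose, among them in WT Aurka (-2.87), Kif20a (-2.86), Bub1 (-2.68) and Cdk1 (-2.60) and in KO Ccnb2 (-3.03), Aurka (-2.43), Cdc20 (-2.36) and Birc5 (-2.29). Pcna is in both the partner list and the S phase list.

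Of the 8 readers of methylated CpG, all tested, 2 rose and 2 fell in the WT comparison, and 3 rose and 2 fell in the KO comparison, shares near those over all genes. In WT lines Zbtb33 (32.6 ± 8.26 to 61.3 ± 5.87 CPM, log2 0.97) was among those that rose in neurospheres, and Zbtb38 (-1.37) and Mbd2 (-0.90) fell. In KO lines Mbd4 (1.05) and Mbd1 (0.73) were among those that rose, and Zbtb38 (-1.44) and Mbd2 (-1.05) fell. Their median log2 was 0.002 in WT and 0.27 in KO lines. Among 12 partners and regulators of TET enzymes, Ogt, the sugar transferase that binds them, was higher in neurospheres, at 118 ± 54.4 against 41.9 ± 6.67 CPM in WT (log2 1.55) and 119 ± 23.0 against 40.8 ± 4.43 CPM in KO lines (1.58). It was the only member of that list to pass in WT, with 1 of 9 tested rising and 0 falling. In KO lines 2 of 11 rose, Ogt and Cxxc4 (36.9 ± 41.2 against 7.48 ± 3.97 CPM, log2 2.30, and 0.835 with an edgeR adjusted p of 0.2465 without KO neurospheres 2), and 1 fell, Wt1, which had 70 counts in KO MEFs and 0 in KO neurospheres, at least 12.15-fold lower against 3 counts over the group. The median log2 of the list was 0.12 and -0.23.

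In a list around base excision repair, which acts after Tdg, 13 of 16 genes were tested. The list also holds genes that are not repair enzymes acting after Tdg, among them Mbd4 and the Gadd45 genes named below. In WT lines 0 rose and 1 fell, the stress-induced gene Gadd45b (37.2 ± 2.94 to 13.8 ± 1.64 CPM, log2 -1.37). In KO lines 2 rose, Gadd45a (1.14) and the glycosylase gene Mbd4 (1.05), and 1 fell, Gadd45g (-1.43). Mbd4 is also in the list of methyl-CpG readers above, so its call is counted in both lists. The median log2 was -0.04 in WT and -0.13 in KO lines. Of 13 genes listed around the methyl donor S-adenosylmethionine, 1 rose and 6 fell in WT lines (median log2 -0.85). In KO lines 2 rose and 5 fell (median log2 -0.31). Of all genes, 20.8% were called in each direction in WT lines, and 25.4% higher and 26.2% lower in KO lines. The list also holds genes that do not make this donor themselves, among them Tyms, Ahcy, Ahcyl1 and Ahcyl2. Tyms, one of those that fell, is also in the S phase list. Ahcyl2 rose from 23.9 ± 12.4 to 176 ± 32.0 CPM (log2 2.93) in WT and from 15.045 ± 7.59 to 154 ± 11.9 CPM (3.40) in KO lines, and Ahcyl1 in KO lines by log2 1.09. Ahcy, which clears the inhibitory product of methylation, fell in both (log2 -1.85 and -2.06), as did Tyms (-1.99 and -1.83) and Shmt2 (-1.76 and -1.59).

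Single lines or settings ended part of these calls. Of 22 passing genes examined in the WT comparison 13 held under every setting and without any single line, among them Hells, Ogt, Gadd45b, Ahcyl2, Tyms, Ahcy, Ccne1 and Aurka. Pcna ended without any of the WT MEF lines or without WT neurospheres 1 or 2, Zbtb33 and Cdk1 each without any of 3 lines, Shmt2 without WT MEFs 1 or 3, Mbd2 without WT MEFs 1 and Cdc6 without WT MEFs 3. Of 26 in the KO comparison 10 held, among them Mbd2, Ogt, Gadd45g, Ahcyl2, Ahcy and Ccnb2. Gadd45a ended without any of 6 lines and Cdc20 without any of 5. Leaving out KO neurospheres 1 ended the calls of Hells, Trim28, Mbd4, Wt1, Rrm2, Ccne1, Aurka and Birc5, and leaving out KO neurospheres 2 those of Hells, Trim28, Mbd4, Mbd1, Cxxc4 and Tyms. Settings ended further calls. Among them, Zbtb38 ended with limma on TPM, at log2 -0.94 (limma adjusted p = 0.0681) in WT and -0.55 (0.1925) in KO lines. Ahcyl1 in KO lines ended with protein-coding transcripts (log2 1.165, edgeR adjusted p = 0.332). The differences behind these lost calls kept their direction. Those given here for left-out lines moved by less than 1.5 times, apart from Cxxc4. Without KO neurospheres 1 the log2 was -1.61 for Hells, -0.82 for Trim28, 0.92 for Mbd4, -2.275 for Rrm2, -1.84 for Ccne1, -2.20 for Aurka and -2.04 for Birc5. Without KO neurospheres 2 it was -1.535 for Hells, -0.79 for Trim28, 0.99 for Mbd4, 0.52 for Mbd1 and -1.56 for Tyms.

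Between KO and WT lines no gene of these lists passed edgeR's test in MEFs or in neurospheres, and Mtr in MEFs and Ahcyl1 and Gadd45a in neurospheres had an unadjusted p under 0.05. In MEFs the genes nearest to the threshold in their lists included Mtr (methionine synthase, 40.5 ± 3.23 CPM in WT and 30.4 ± 4.39 in KO, log2 -0.40, edgeR adjusted p = 1.00), Zbtb38 (log2 0.35) and Polb (0.38), with Pola1 (0.26) first among S phase and Cenpe (0.30) among G2 and M phase genes. Trdmt1 (0.53), Trim28 (0.29), Mbd2 (0.21), Ahcyl2 (-0.66), Cxxc5 (-0.34), Idh2 (-0.25), Rrm1 (0.25) and Tpx2 (0.23) were also among them. In neurospheres they included Ahcyl1 (370 ± 63.1 CPM in WT and 608 ± 87.9 in KO, log2 0.72, edgeR adjusted p = 0.999), Gadd45a (0.70), Gadd45b (1.09), Mtr (0.53), Cxxc4 (1.71), Sinhcaf (0.48), Cdca7 (0.95), Zbtb24 (0.62), Zbtb33 (-0.32), Zbtb4 (0.31), Prim1 (0.97), Mcm6 (1.097), Ccnb2 (-0.71) and Aurkb (0.75). Cdca7, Mcm6 and Aurkb turned negative without KO neurospheres 3.

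The genes most like each member over the 14 libraries were looked up among 6903 genes with a mean of at least 20 CPM, by Pearson r of log2 CPM. For Dnmt1 these were Mcm3 (r = 0.979), Nucks1 (0.977) and Pcna (0.976), and for Uhrf1 Top2a (0.988), Pclaf (0.986) and Cdk1 (0.980). For Tet1 they were Phyhipl (0.980), Ntrk3 and Klf12 (0.975 each), for Tet2 Tnrc6b (0.988), Rbm5 (0.984) and Pcmtd2 (0.983), for Tet3 Atp8a1 (0.973), Rnf122 (0.972) and Fam168a (0.971), for Tdg Fez1 (0.974), Kif1a (0.969) and Mboat2 (0.966), and for Dnmt3a Atraid (0.987), mt-Co3 (0.983) and Slc27a1 (0.982). For Dnmt3b, with few counts, the highest was Gid8 (0.792). These libraries hold both cell types and so include the differences between them. With the 4 group means removed, Dnmt1 was closest to Tuba1b (0.988), Smc2 (0.985) and Rrm2 (0.977) and Uhrf1 to Cdk1 (0.990), Pclaf (0.989) and Top2a (0.987), while Tet2 was closest to Rbm5 (0.960), Phlpp2 (0.945) and 4932438A13Rik (0.935). For Dnmt3a the highest was Slc27a1 (0.869), for Tet1 Phyhipl (0.822) and for Tdg Furin (0.927). All points share library and depth.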

How the data were processed

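Libraries were made with the QuantSeq 3′ FWD kit, per the labels' protocols. The authors deposited expected counts and TPM per transcript from Salmon 1.1.0, per the submitters' processing notes and the file headers; the transcript set is not given in the sources used here. Transcripts were matched to GENCODE M21 (GRCm38), and 1000 of 116945 with no match, 0.251% to 0.425% of reads, were left out. Expected counts were summed per gene and rounded.

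Each comparison was fitted on its own groups with edgeR 4.0.16 in R 4.3.3 (TMM, default filter on low counts, robust quasi-likelihood test, Benjamini-Hochberg over all genes tested, threshold 0.05), and the code was tested on simulated data. CPM use TMM over all 14 libraries, and log2 CPM for correlations a prior count of 2. Alternatives used DESeq2 1.42.0, its size factors, other filters, limma 3.58.1 on log2(TPM + 1), 1 fit of all libraries, protein-coding transcripts, a replicate block and each line left out. Members and lists were chosen with earlier results of these data known. All members are named, and of each list up to 4 passing genes in each direction by log2, or 2 by p where none passed. Lines of a group were not copies (chi-square per degree of freedom 4.29 or more). Floors cover counting error only. A few genes of the lists, and one gene with a similar pattern, are not reported here by name, although counts and medians over the lists include them.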

Additional observations from a re-analysis of the deposited data

How the results depend on the processing

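Dnmt3a, Tet1, Tet2, Tet3 and Tdg were called higher in neurospheres under all settings in WT lines, and in KO lines under all but limma on TPM, where Tet1 missed the threshold. Depth limits Dnmt3b, with 0 to 10 counts per library, and Uhrf1 in neurospheres. The number of members called lower in neurospheres (0 as reported) was 2 with DESeq2 and with TPM, and 1 with DESeq2's size factors, no filter, the replicate block and both genotypes averaged in WT lines, and 1 with TPM and with both genotypes averaged in KO lines. Genes called were 7776 with genotypes averaged against 4614 in WT lines, and 3295 with the replicate block against 5892 in KO lines. The lines share a replicate number and no stated origin, and deviations of same-numbered lines correlated at -0.707 to 0.275.

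Between KO and WT, genes called in MEFs were 0 with the replicate block and 3 without the lines that stand apart, in neurospheres 7 with DESeq2 and 2 with no filter, and in the interaction 3 with DESeq2. H3f3a had log2 -5.81 in MEFs with the replicate block (edgeR adjusted p = 0.0796). No member passed in any of these. Some signs of log2 changed, also of values not near 0, such as Uhrf1 (0.60) and Sinhcaf (0.48) in neurospheres. In MEFs the replicate block gave Uhrf1 0.092, Dnmt1 0.067, H3f3b 0.15, Dnmt3a 0.05 and Tdg -0.005. Leaving out the lines that stand apart gave Uhrf1 0.24, Dnmt1 0.05, Dnmt3a 0.11, Tdg -0.028, Tet3 -0.051 and Tet1 0.204, and TPM gave Uhrf1 0.003, Dnmt3a 0.12 and Tet1 0.91. Protein-coding transcripts gave Dnmt1 0.002. In neurospheres TPM gave Uhrf1 -0.095, Tdg -0.014, Sinhcaf -1.22, Tet2 -0.068 and Tet1 -0.155, and the replicate block Tet2 -0.054. In the interaction Tdg became 0.078 with the block and 0.081 without the lines that stand apart, and Tet1 -0.14 without them. Of the ratios in MEFs, TPM gave 0.151 points for the Dnmt3a share and -5.85 for the Tet3 share, and protein-coding transcripts a log2 of -0.01 for Uhrf1 per Dnmt1. The Tet3 share of KO neurospheres against KO MEFs was -17.4 points with TPM. The cause of these shifts was not tested. The fits without the lines that stand apart and with genotypes averaged were chosen after seeing the data.

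Leaving out each line gave 0 to 2 genes called between KO and WT neurospheres, 0 without WT neurospheres 2 or KO neurospheres 1, and 0 to 2 members called lower in neurospheres in WT and in KO lines. The log2 ranges in KO against WT MEFs were -0.185 to 0.24 for Uhrf1, -0.13 to 0.079 for Dnmt1, -0.20 to 0.16 for H3f3b, -0.40 to 0.14 for Dnmt3a, -0.10 to 0.25 for Tdg, -0.073 to 0.39 for Tet3, -0.58 to 0.44 for Tdrkh and -0.49 to 0.079 for Tet1. In neurospheres they were -1.04 to 1.155 for Uhrf1, -0.34 to 0.69 for Dnmt1, -1.06 to 1.54 for Aurkb, -0.044 to 1.52 for Mcm6, -0.16 to 1.32 for Cdca7, -0.058 to 0.21 for Tdg, -0.53 to 0.41 for Tet2, -0.17 to 0.14 for Tdrkh and -0.091 to 0.265 for Tet1. In the interaction they were -0.96 to 1.21 for Uhrf1, -0.31 to 0.71 for Dnmt1, -0.38 to 0.14 for Dnmt3a, -0.195 to 0.165 for Tdg, -0.16 to 0.785 for Tet2 and -0.037 to 0.55 for Tet1. The Dnmt3a share in KO against WT MEFs ranged from -2.59 to 0.185 points. The Tet3 share ranged from -0.375 to 12.9 points in MEFs, from -8.20 to 0.753 in neurospheres and from -28.3 to -19.4 between KO neurospheres and KO MEFs. The log2 of Uhrf1 per Dnmt1 ranged from -0.063 to 0.16 in MEFs and from -2.245 to 0.49 in neurospheres.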

Other observations

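Germline genes that promoter methylation is known to keep silent in somatic cells were listed too, as genes that depend on the members. Of 16 such genes, Tex101, Mael, Asz1, Tdrd1, Hormad1, Stk31 and Tex11 had 0 counts in all 14 libraries. Sycp1, Taf7l, Slc25a31 and Dpep3 had 1 to 2 counts in all, Dazl 5, Sycp3 11, Rnf17 16 and Ddx4 64. Tdrkh, which encodes a mitochondrial partner of the piRNA pathway, was the only one with enough counts to be tested. It was higher in neurospheres, at 37.0 ± 3.79 against 10.3 ± 7.39 CPM in WT lines (n = 3 each, log2 1.90, edgeR adjusted p = 0.0300) and 38.01 ± 8.51 (n = 3) against 9.22 ± 4.96 CPM (n = 5) in KO lines (log2 2.06, adjusted p = 0.00349). The WT call ended without WT MEFs 3 or any 1 of the WT neurosphere lines, with log2 values of 1.84 to 2.00 and edgeR adjusted p-values of 0.0584 to 0.0854. Between KO and WT its log2 was -0.13 in MEFs and 0.04 in neurospheres, and it did not pass (edgeR adjusted p = 1.00 and 0.999).

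Within the 8 MEF lines Tet3 and Tdg varied together (Pearson r of log2 CPM 0.805) and both ran opposite to Tet2 (-0.816 and -0.839). In the 6 neurosphere lines the same pairs had r = -0.446, 0.523 and -0.014. WT MEFs 2 and KO MEFs 3, the lines that stood apart, were the 2 highest MEF lines for Tet2 and the 2 lowest for Tet3 and for Tdg. Without them r over the other 6 MEF lines was 0.243, -0.297 and -0.355, so the relation rested on those lines. These values are descriptions over lines of both genotypes.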
